A study of Mus musculus with 6 samples.

Results

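The genes described here encode the proteins of the cytosolic ribosome, and they were measured in MN9D cells transfected with Lmx1a. Members were chosen by symbol, as Rps or Rpl followed by a number, Rplp0 to Rplp2, or Rpsa, with pseudogenes left out. The rule found 121 probes for 69 genes, of 31769 probes for 17865 named genes on the array. Of these genes 43 belong to the large subunit, with 77 probes, and 26 to the small subunit, with 44 probes. RefSeq lists 84 protein-coding mouse symbols that match the rule. Of these 68 were measured, and 16 were not analysed here. The remaining measured symbol, Rps4l, is not classed as protein coding there. The set was selected on its log2 ratios of Lmx1a over control in these same arrays, so those ratios are given as a description. Calls from fits across all probes are counted beside the background only and support nothing here.

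Ribosomal proteins bind ribosomal RNA to form the small subunit, which reads the messenger, and the large subunit, which joins amino acids. Each protein is needed in about equal amounts, and proteins that are not built into subunits are broken down. Their messengers are among the most abundant in dividing cells. They begin with a run of pyrimidines at the 5' end, the TOP motif, through which the mTOR pathway sets how strongly they are translated. The transfected factor, Lmx1a, is a LIM homeodomain protein known for specifying midbrain dopamine neurons.

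MN9D is a mouse cell line with features of midbrain dopamine neurons. The Lmx1a group was transfected with the Lmx1a coding sequence in the plasmid pcDNA3.1(-), and the control group with the same plasmid empty. Both received pBluescript as carrier DNA. There were 3 Lmx1a RNA pools, each from 3 dishes, and all were set against 1 control pool from 9 dishes on 2-colour arrays. A dye swap was run for every pool, so there were 6 arrays. Both arrays of a pool hold the same RNA and were averaged into 1 replicate (n = 3). All 3 comparisons share the control pool, which is 1 sample, and the errors below leave out how much control cultures vary. Separate transfections are not stated for the pools, so errors and p-values describe the spread of these samples, which may be technical. The cells were transfected transiently and in pooled dishes, so cells that took up the plasmid were measured together with any that did not.

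Lmx1a itself had log2 ratios of 0.93 to 3.19 on the 6 arrays. Of 14 dopaminergic markers 7 were detected on every array, among them Th, Ddc, Slc18a2, Nr4a2 and the transfected Lmx1a itself. Slc6a3, Pitx3, En1 and En2 were not. Every array holds RNA of transfected cells, so the detection of Lmx1a does not describe the line without the plasmid. Of 9 measured markers of other cells 2 were detected on every array, Aif1 and Pecam1. Between 50.2% and 69.3% of probes were detected per array, with the lowest share in pool 1 with Lmx1a in Cy3. A probe counts as detected on an array where, in at least 1 channel, its signal exceeded the local background by 2 background standard deviations. This held on all 6 arrays for 114 of the 121 ribosomal protein probes, and for the brightest probe of 67 of the 69 genes. The exceptions were Rpl3l, the striated muscle form of Rpl3, and Rps4l.

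Start sites of genes from both ends of the range are shown first, because ribosomal protein promoters are known for a shared layout around the start. RefSeq promoter windows (GRCm38.p6) matched 55 of the 69 genes, with 67 windows in all. Each line gives the 50 bases before the annotated start and the 30 bases from it on, on the gene's strand and read 5' to 3'. Capitals mark the pyrimidine runs CTTTC and CTTCC on the printed strand, and CCGGAAG, the core bound by ETS factors, on either strand. The first 4 genes had the lowest ratios, and the last 3 were among the highest. They lie at chr11:114668530-114668609 (+) for Rpl38, chr17:33824533-33824612 (-) for Rps28, chr3:90213619-90213698 (-) for Rps27 and chr1:39367801-39367880 (+) for Rpl31. The others lie at chr17:24720013-24720092 (+) for Rps2, chr3:86142639-86142718 (-) for Rps3a1 and chr5:121204451-121204530 (+) for Rpl6.
Rpl38: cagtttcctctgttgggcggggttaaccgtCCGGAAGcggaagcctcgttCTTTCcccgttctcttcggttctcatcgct
Rps28: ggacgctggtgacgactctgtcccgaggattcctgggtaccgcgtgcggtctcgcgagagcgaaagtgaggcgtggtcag
Rps27: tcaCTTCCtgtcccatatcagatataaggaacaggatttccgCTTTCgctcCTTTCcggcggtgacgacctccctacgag
Rpl31: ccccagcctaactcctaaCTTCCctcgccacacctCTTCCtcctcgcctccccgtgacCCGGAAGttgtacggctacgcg
Rps2: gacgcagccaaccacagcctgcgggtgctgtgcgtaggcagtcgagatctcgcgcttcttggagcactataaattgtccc
Rps3a1: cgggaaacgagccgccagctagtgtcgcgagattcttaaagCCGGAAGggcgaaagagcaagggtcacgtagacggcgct
Rpl6: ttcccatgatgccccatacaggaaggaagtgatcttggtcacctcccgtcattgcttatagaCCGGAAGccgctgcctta

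Within 50 bases either side of the start, CTTTC on the gene's strand stood in 47.8% of the ribosomal protein windows and in 12.8% of all 32851 windows. CTTCC on that strand stood in 47.8% and 19.5%. Over the whole window, from 250 bases before to 50 after the start, CCGGAAG on either strand stood in 37.3% and 8.86%. Its reverse complement begins with CTTCC, so these 2 counts overlap. The TATA box core TATAAA on the gene's strand stood in 8.96% and 8.32%. By gene, CTTTC was found for 5 of 9 matched genes of the lowest 10 and for 23 of 45 other detected genes, CTTCC for 6 and 21, and CCGGAAG for 4 and 20. A motif match describes the letters of these windows only.

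Ribosomal protein probes lay slightly below the rest of the array on every array. Their median log2 ratio was -0.071, a fold of 0.952, with pool medians of -0.056, -0.11 and -0.056 (SD 0.032, n = 3). The median of the 14142 other detected probes was 0.0028. On the arrays with Lmx1a in Cy5 the medians were -0.078, -0.11 and -0.052 in pools 1, 2 and 3. On the swapped arrays they were -0.049, -0.11 and -0.057. Pool 2 was the lowest in both orientations, and pools 1 and 3 were alike. Fewer cells with such messengers and less of them per cell cannot be told apart in bulk RNA. The ratios are relative to the other probes of each array, so a change in total RNA per cell would not show.

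**Figure D1:**
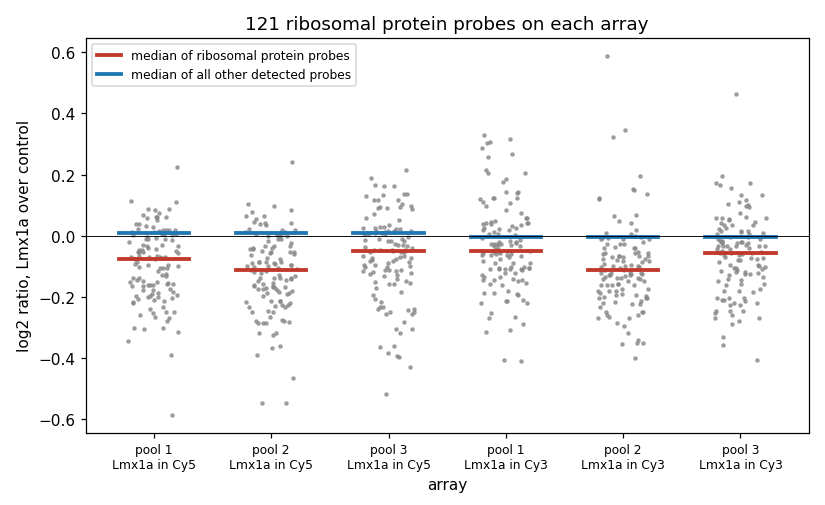
Log2 ratio of Lmx1a over control (y axis) of the 121 ribosomal protein probes on each of the 6 arrays (x axis); each point is 1 probe, red lines are their medians and blue lines the medians of all other detected probes. The red lines lie between -0.11 and -0.049, below the blue line on every array.

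The downward displacement was wide rather than deep. Of the 121 probes 107 (88.4%) were below 0 and 14 above, and the range ran from -0.29 to 0.058. Of all probes 49.0% were below 0, and of detected probes 47.4%. Ratios of -0.2 or lower were found for 11 probes (9.09%), beside 0.179% of all probes, and ratios of -0.1 or lower for 48 (39.7%), beside 1.95%. No member reached 0.1. Below 0 on all 6 arrays were 30 probes (24.8%), beside 2.61% of all probes, and none was above 0 on all 6. Only 44.9% of all probes were detected on all 6 arrays, beside 114 of the 121 members. Over detected probes alone, 0.372% were at -0.2 or lower, 4.24% at -0.1 or lower and 4.35% below 0 on all 6 arrays. Among detected members these shares were 9.65%, 42.1% and 26.3%. In limma's fit of the 3 pools over all probes, no ribosomal protein probe had an adjusted p under 0.05, where 0% of all probes did. At an unadjusted p under 0.05, 65 members (53.7%) were lower and none higher, beside 5.56% of all probes lower. The fit of 6 arrays with the pool as a replicate block called 22 probes of 17 genes lower and none higher, where 0.749% of all probes were called lower. These shares cannot be separated from how the set was selected, and nothing is read from them.

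Taken by gene, with the brightest probe of each, 60 of 67 detected genes were below 0 and 7 above, with a median of -0.066. Of the 9429 other detected genes on the array 4364 were below 0. The 51 genes between the 10 lowest and the 6 highest ran from -0.14 to 0.0014, and 50 of them were below 0.

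**Figure D2:**
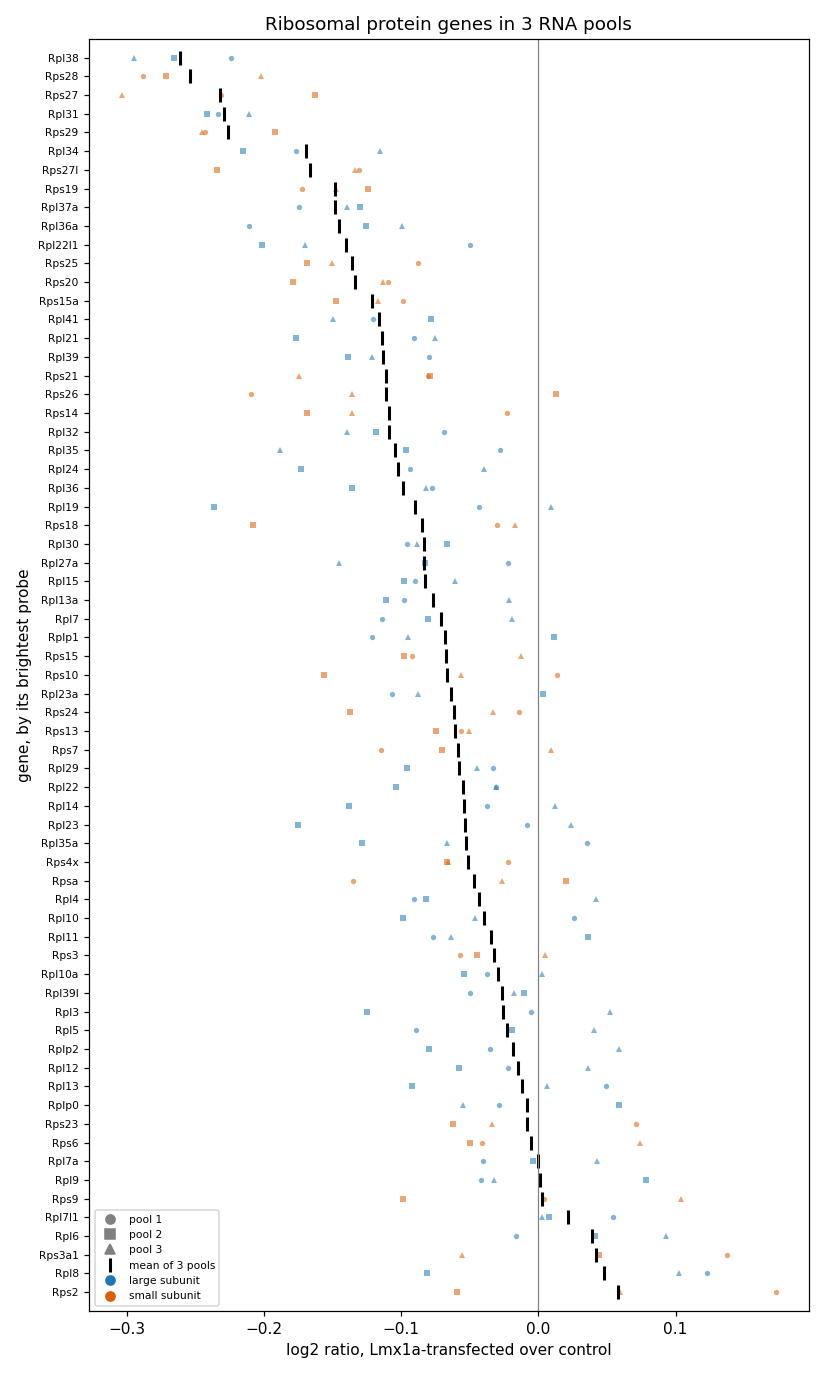
Log2 ratio of Lmx1a over control (x axis) for each of the 67 detected ribosomal protein genes (y axis, lowest at the top), by its brightest probe; symbols are the 3 RNA pools, coloured by subunit, and black bars their means. The 5 genes at the top, Rpl38, Rps28, Rps27, Rpl31 and Rps29, lie apart from the others, below -0.2.

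Rpl38, a small surface protein of the large subunit that in mice is known for the translation of Hox messengers, was the lowest gene. Its array ratios ran from -0.32 through a median of -0.27 to -0.19, and its pool values were -0.22, -0.27 and -0.29 (mean -0.26 ± 0.036, SD, n = 3). All 6 arrays were below 0. Rps28, which lies where the messenger leaves the small subunit, had array ratios from -0.35 through -0.28 to -0.11 and pool values of -0.29, -0.27 and -0.20 (mean -0.25 ± 0.046). The arrays of Rps28 were again all below 0, and the spread between its arrays exceeded that between its pools.

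Rps27, a zinc-finger protein of the small subunit, had pool values of -0.23, -0.16 and -0.30 (mean -0.23 ± 0.070), on arrays from -0.39 through -0.23 to -0.058. Rpl31, a protein at the exit of the peptide tunnel, had the tightest pools of the lowest 10 genes, at -0.23, -0.24 and -0.21 (mean -0.23 ± 0.016). Its arrays ran from -0.29 through -0.22 to -0.20. Rps29, a zinc-binding protein of the small subunit's head, had pool values of -0.24, -0.19 and -0.25 (mean -0.23 ± 0.030), on arrays from -0.31 through -0.24 to -0.086. All 6 arrays were below 0 for each of these 3 genes. The first gene outside -0.2 was Rpl34, of the large subunit, at -0.17 ± 0.051, with array values of -0.32, -0.14 and -0.11 as lowest, median and highest.

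The other genes of the lowest 10 lay between -0.17 and -0.15. Rps27l, a paralog of Rps27 known as a p53 target, had pool values of -0.13, -0.23 and -0.13 (mean -0.17 ± 0.059). Rps19, mutated in the human Diamond-Blackfan anaemia, had pool values of -0.17, -0.12 and -0.15 (mean -0.15 ± 0.024). Its arrays reached from -0.41 to 0.066, the only gene of the 10 with an array above 0. Its mean was -0.015 where Lmx1a was in Cy5 and -0.28 where it was in Cy3, and -0.069 without the dimmest array. Rpl37a, a zinc-binding protein of the large subunit, had pools of -0.17, -0.13 and -0.14 (mean -0.15 ± 0.023), and Rpl36a, at the site where spent transfer RNA leaves, had -0.21, -0.13 and -0.10 (mean -0.15 ± 0.058).

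At the other end, none of the 7 genes above 0 had a mean larger than its SD between pools. Rps2, where the messenger enters the small subunit, had pool values of 0.17, -0.059 and 0.060 (mean 0.058 ± 0.12). Rpl8, which lies close to the peptidyl transferase centre, had 0.12, -0.081 and 0.10 (mean 0.048 ± 0.11). Rps3a1, a platform protein of the small subunit, had 0.14, 0.044 and -0.056 (mean 0.042 ± 0.097). Each of these genes had 1 pool below 0. Rpl6, of the large subunit, had a mean of 0.039 ± 0.055 and Rpl7l1, a nucleolar paralog of Rpl7, one of 0.022 ± 0.028. Rps9, a neighbour of Rps2 at the messenger entry, was at 0.0029 ± 0.10. Under median centring 5 of these 6 genes were below 0, with Rps9 at -0.094, Rps3a1 at -0.085, Rpl8 at -0.066, Rps2 at -0.056 and Rpl7l1 at -0.0080. Rps3a1 was at -0.12 on the arrays with Lmx1a in Cy5, and Rpl6 at -0.028 on those with Lmx1a in Cy3.

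Values by site in the ribosome follow, in groups put together after the values were seen and without a test between them. Of the 3 stalk proteins, which recruit elongation factors, Rplp0 was at -0.0084 ± 0.060, Rplp2 at -0.019 ± 0.071 and Rplp1 at -0.068 ± 0.070, near the median of all members. Rpl5 (-0.023 ± 0.065) and Rpl11 (-0.035 ± 0.062), which carry the 5S RNA into the large subunit and can bind Mdm2, were also within their spread of 0. For the messenger entry only Rps2, Rps3 and Rps9 were grouped, and other measured proteins may lie at that site. Their median was 0.0029. Grouped here for the tunnel exit were Rpl19, Rpl23a, Rpl31, Rpl35 and Rpl39, which need not be every measured protein of that site. All 5 were below 0, as were 38 of the 42 detected large-subunit genes, so nothing is read from this count. The 5 genes had a median of -0.10 and a range of -0.23 to -0.064. Rps6, the small-subunit protein phosphorylated by S6 kinase, was at -0.0055 ± 0.069.

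The subunits had similar median ratios by gene. The median of the 42 detected large-subunit genes was -0.061, with 38 below 0, and that of the 25 small-subunit genes -0.067, with 22 below 0. The difference of the medians, large minus small, was 0.0066, and by pool 0.031, 0.0028 and 0.011. It was positive on 5 of 6 arrays, from 0.042 to 0.079, and -0.030 in pool 1 with Lmx1a in Cy3. By probe the medians were -0.058 for the 77 large-subunit probes and -0.091 for the 44 small-subunit probes. Small-subunit genes were more often at -0.1 or lower, 11 of 25 (44.0%) against 12 of 42 (28.6%). The difference of the medians by gene ran from 0.0026 to 0.058 under the alternatives run, and differences between the subunits were not tested.

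Genes with higher numbers in their symbol broadly had lower ratios. Ribosomal proteins were numbered from their positions on gels, so that larger proteins broadly received lower numbers. This grouping was chosen after the values were seen. Among 63 detected genes with a number, the 19 numbered 1 to 10 had a median of -0.023, 12 of them were below 0 and none was at -0.1 or lower. The 14 numbered 11 to 20 had a median of -0.080, and the 18 numbered 21 to 30 one of -0.11. The 12 numbered 31 to 41 had a median of -0.11, and 9 of them were at -0.1 or lower. Every gene numbered above 10 was below 0.

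In each pool the genes numbered 31 to 41 had a lower median than those numbered 1 to 10. For numbers 1 to 10 the medians in pools 1, 2 and 3 were -0.022, -0.059 and 0.0095, and for numbers 31 to 41 they were -0.10, -0.13 and -0.13. In pool 2 the genes numbered 21 to 30 were the lowest, at -0.15. Spearman's rho between number and mean ratio was -0.70 across the 63 genes. It was -0.74 across 39 large-subunit genes and -0.83 across 24 small-subunit genes. These are descriptions across genes that share all 6 arrays and are not independent replicates. Under the alternatives run, the median for numbers 31 to 41 lay between -0.20 and -0.11 and that for numbers 1 to 10 between -0.086 and 0.0034, and the first was lower each time. Brightness, the mean log2 signal of both channels, had a rho of 0.077 with the ratio, -0.081 in the large and 0.36 in the small subunit, and of -0.072 with the number. Protein, messenger and probe lengths were not used here, so their part in this order was not tested.

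**Figure D3:**
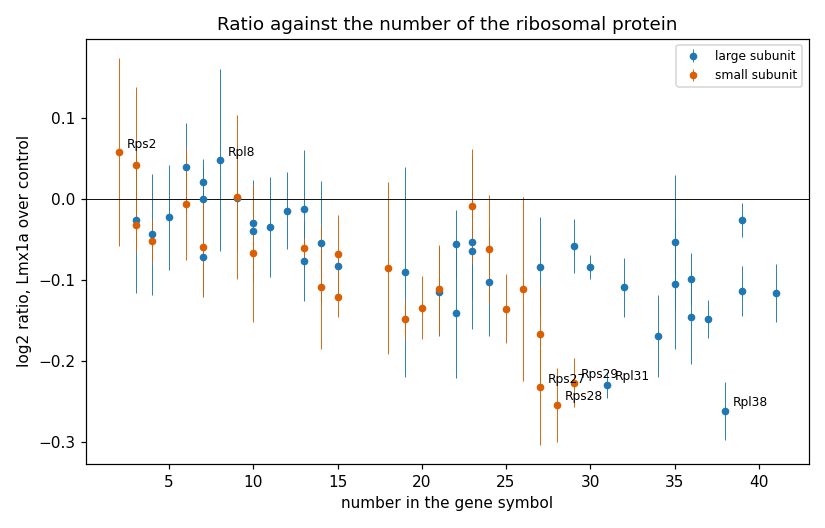
Mean log2 ratio of Lmx1a over control (y axis) against the number in the gene symbol (x axis) for the 63 detected numbered genes, coloured by subunit; bars are the SD over 3 RNA pools. Genes numbered 1 to 10 lie between -0.071 and 0.058, and those numbered 31 to 41 between -0.26 and -0.026.

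Several probes of a gene gave broadly similar values. Of the 69 genes 34 had more than 1 probe, and 32 of these had at least 2 detected probes, 79 probes in all. In 26 of the 32 genes every detected probe was below 0, in none was every one above, and in 6 the probes stood on both sides. The SD between probes of a gene was 0.043, that between the gene means 0.060, and the median SD of a probe between pools 0.054. The range between probes of a gene had a median of 0.048 and a maximum of 0.15. The brightest probe was below the dimmest in 13 of 32 genes, so brightness set no common order.

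Rpl38 had the most probes, 5, and all were low, at -0.29, -0.26, -0.21, -0.20 and -0.16. The 3 probes of Rpl31 were at -0.23, -0.23 and -0.20, and those of Rps29 at -0.25, -0.23 and -0.15. For these 3 genes the low value did not rest on 1 probe. The Rpl31 probe at -0.20 was at 0.044 in pool 1 with Lmx1a in Cy3 and at -0.23 or lower on the other 5 arrays. Rpl37a, with -0.15, -0.15 and -0.12, and Rps24, a small-subunit protein, with -0.11, -0.10 and -0.061, were close together as well. Rps15, of the small subunit's head, had probes at -0.13, -0.089 and -0.067.

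In other genes the probes differed more. Rpl30, a large-subunit protein that in yeast binds its own messenger, had 1 probe at -0.20 ± 0.12 and others at -0.084 ± 0.015 and -0.056 ± 0.011. The lowest of these probes differed between dyes, with a Cy5 over Cy3 log2 ratio of -0.21 ± 0.038 (limma adjusted p = 0.0038). It was at -0.42 on the arrays with Lmx1a in Cy5 and at 0.0085 on the swapped arrays. Rpl27a had probes at -0.14, -0.083 and 0.00055, and Rpl9, near the base of the stalk, had probes at -0.12, -0.035 and 0.0014. Rpl13a, known for the translational silencing complex in human monocytes, had 4 probes, the lowest at -0.094 and the highest close to 0. Except in Rpl30, 1 probe of each of these genes was near 0 and another near -0.1 or lower.

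The 3 probes of Rpl7a, which binds the large ribosomal RNA, were all near 0, between -0.018 and 0. Rps21, of the small subunit, had detected probes at -0.11, -0.093 and -0.0082. Of the 3 probes each of Rpl41 and Rpl21, 2 were detected, at -0.13 and -0.12 for Rpl41 and at -0.12 and -0.11 for Rpl21. Their undetected probes lay at 0.0038 and -0.013. Ribosomal protein genes have many processed pseudogenes, and binding of their transcripts by these probes was not tested.

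**Figure D4:**
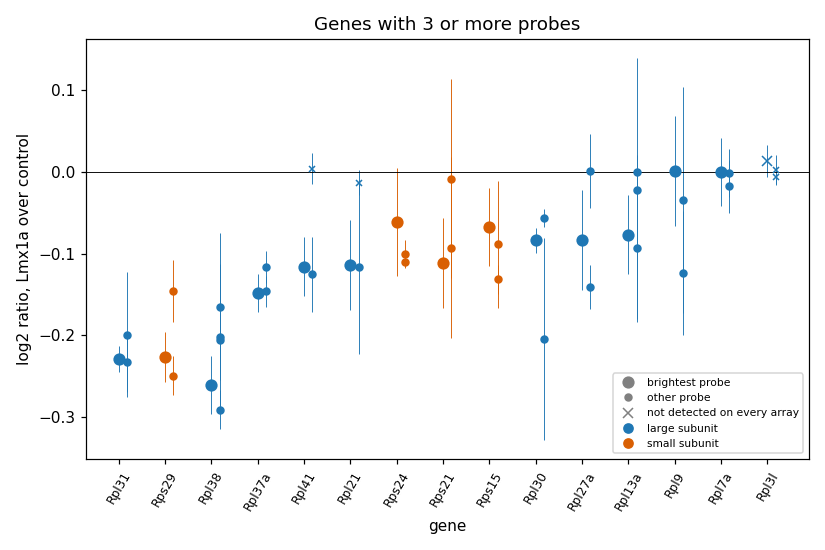
Mean log2 ratio of Lmx1a over control (y axis) of every probe of the 15 genes with 3 or more probes (x axis), coloured by subunit; large points are the brightest probe of a gene, crosses are probes not detected on every array, and bars are the SD over 3 RNA pools. The 11 probes of Rpl31, Rps29 and Rpl38 lie between -0.29 and -0.15, while the 3 probes of Rpl7a lie near 0.

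Of the detected paralogs compared here only Rpl22l1 lay below its parent, and its ratio differed between dyes. Rps27l and Rps27 were at -0.17 and -0.23, both on the low side. Rpl22l1 was at -0.14 ± 0.080 and Rpl22, an RNA-binding large-subunit protein that in mice keeps Rpl22l1 low, at -0.055 ± 0.042. The mean of Rpl22l1 was -0.39 on the arrays with Lmx1a in Cy5 and 0.11 on the swapped arrays. Rpl39l, the testis-enriched form of Rpl39, was at -0.026 ± 0.021, and Rpl39, which lines the peptide tunnel, at -0.11 ± 0.030. Rpl7l1 was at 0.022 ± 0.028 and Rpl7 at -0.071 ± 0.048. Rpl3 was at -0.026 ± 0.090, while Rpl3l was not detected on every array. The same holds for Rps4l, whose X-linked relative Rps4x was at -0.052 ± 0.026. Near-identical copies can share signal on a probe, so values of paralogs are uncertain.

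The dye ratio, Cy5 over Cy3 averaged over the swap, was not used to choose the genes and could be tested. In limma's fit over all probes 18 of the 121 probes (14.9%), of 17 genes, differed between dyes at an adjusted p under 0.05, beside 6.8% of all probes. Of these 14 were brighter in Cy3, beside 4.15% of all probes, and 4 in Cy5. Among probes with a mean log2 signal above 10, 12 of 65 ribosomal protein probes (18.5%) were called, beside 28.1% of 915 other probes. The share of members called was thus above that of all probes and below that of other bright probes. The count depended on the processing. With pool 2 or pool 3 left out it fell, and so did the share of all probes called. The count was 9 (7.44%) without pool 2, where 2.27% of all probes were called. Without pool 3 it was 7 (5.79%), where 1.58% of all probes were called. It was 0 with plain background subtraction, where 1 of all probes was called, and 116 (95.9%) under median centring, where 78.0% of all probes were.

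The largest dye ratio was that of Rpsa, the small-subunit protein also known as the laminin receptor. Its log2 ratios of Lmx1a over control were -0.59, -0.55 and -0.52 on the arrays with Lmx1a in Cy5, and 0.32, 0.59 and 0.46 on the swapped arrays. The orientations did not overlap, and the dye ratio was -0.50 ± 0.060 (log2, SD, n = 3; limma adjusted p = 0.0007). Its mean over the swap was -0.047 ± 0.080, so the ratio of a single array of Rpsa mostly carried the dye. Dye ratios were -0.25 ± 0.077 for Rps26 (adjusted p = 0.0075), a small-subunit protein near the messenger exit, and -0.25 ± 0.027 for Rpl22l1 (adjusted p = 0.0020). Rpl11 (adjusted p = 0.012) and 1 probe of Rpl7a (adjusted p = 0.0033) each had -0.21. Brighter in Cy5 were Rpl3 (0.13 ± 0.018, adjusted p = 0.011), which is placed near the peptidyl transferase centre, 1 probe of Rps15 (0.11 ± 0.060, adjusted p = 0.049), 1 probe of Rpl27a (0.11 ± 0.019, adjusted p = 0.020) and Rpl19 (0.088 ± 0.030, adjusted p = 0.040).

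Of the 18 probes with a dye call 14 had ratios of opposite sign in the orientations, and of all 121 probes 48 did. A large dye ratio favours opposite signs by construction. The share over all probes is not given here, so nothing is read from these counts. The lowest genes Rpl38, Rps28, Rps27, Rpl31 and Rps29 had no dye call, with adjusted p-values from 0.11 to 0.58, and were below 0 in both orientations. Of the lowest 10 only Rpl36a had one, with a dye ratio of -0.091 (adjusted p = 0.028). Over all members the median was -0.086 in the first orientation, with Lmx1a in Cy5, and -0.065 in the other.

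**Figure D5:**
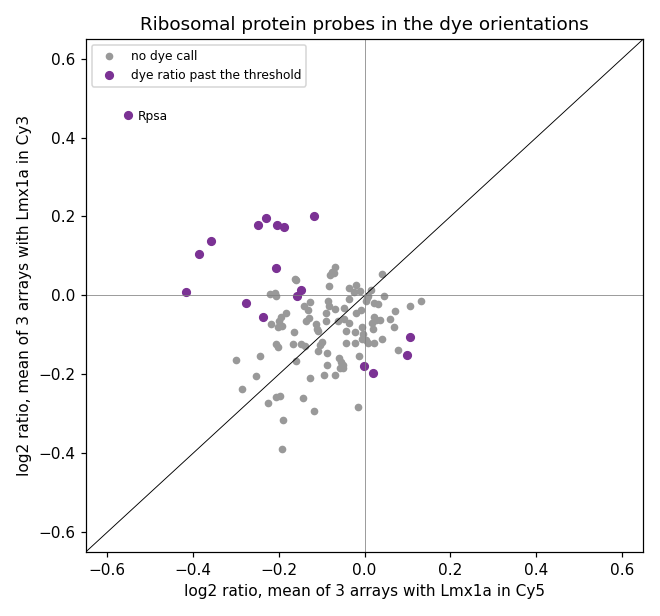
Mean log2 ratio of Lmx1a over control on the 3 arrays with Lmx1a in Cy5 (x axis) and on the 3 with Lmx1a in Cy3 (y axis), 1 point per ribosomal protein probe; purple marks the 18 probes with a dye call, and the diagonal marks equal values. Rpsa lies at -0.55 and 0.46, and the 48 probes in the upper left and lower right of the plot have opposite signs in the orientations.

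Differences between the 3 Lmx1a pools were tested with limma's F test, with a dye term, against the spread between arrays of a pool, which is technical. No ribosomal protein probe passed at an adjusted p under 0.05, where 0% of all probes did, and the smallest adjusted p was 0.46. At an unadjusted p under 0.05 there were 22 of 121 (18.2%), beside 7.44% of all probes. The smallest F test p-values belonged to 1 probe each of Rpl9 and Rps18 and to Rpl19, Rps2 and 1 probe of Rpl30. The Rpl9 probe had pool values of -0.060, -0.16 and 0.11 (unadjusted p = 0.0017). The Rps18 probe, of a protein in the small subunit's head, had -0.12, -0.28 and 0.0087 (unadjusted p = 0.0019). Rpl19, a tunnel exit protein, had -0.043, -0.24 and 0.0093 (unadjusted p = 0.0024), and the probe of Rpl30 had -0.12, -0.35 and -0.14 (unadjusted p = 0.0048). In all 5 probes, that of Rps2 among them (unadjusted p = 0.0039), pool 2 was the lowest. This did not hold for every probe of these genes. In the brightest probes of Rpl9 and Rpl30 pool 2 was the highest, at 0.079 and -0.067. In the brightest probe of Rps18 it was the lowest, at -0.21.

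Lists of related genes, described by detected genes with their brightest probe, place these values. Across the 9429 other detected genes the median log2 ratio was 0.0035, and 4364 were below 0. Other messengers with a TOP motif, mainly translation factors, had a median of 0.018 over 24 genes, with 9 below 0. Their lowest were Fau (-0.094 ± 0.063), which encodes a ubiquitin-like protein fused to ribosomal protein S30, and Eef2 (-0.086 ± 0.070), the translocation factor. Their highest were Eef1a1 (0.13 ± 0.091), which delivers aminoacyl transfer RNA, and Vim (0.12 ± 0.060), the filament protein vimentin. The replicate block called none of these 24 genes. Of the 9429 other detected genes it called 62 lower and 56 higher, so the lack of calls is not read as a difference.

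Ribosome biogenesis factors had a median of -0.0038 over 55 genes, with 31 below 0. None was called with the block, which is likewise not read as a difference. The lowest were Nhp2 (-0.11 ± 0.062), of the pseudouridine guide particles, and Nop56 (-0.085 ± 0.079), of the methylation guide particles. The highest were Sbds (0.079 ± 0.11) and Nmd3 (0.077 ± 0.039), which act in late maturation and export of the large subunit. Neither the other TOP messengers nor the biogenesis factors thus had a median as low as that of the ribosomal protein genes.

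Mitochondrial ribosomal proteins had a median of -0.029 over 75 genes, with 55 below 0 and 3 called lower with the block (4.0%, beside 0.658% of the other detected genes). Mrpl54 (-0.17 ± 0.072) and Mrps21 (-0.14 ± 0.045) were the lowest. Mrps14 was at 0.052 ± 0.043. Mrpl14 was the highest at 0.16 ± 0.46, a mean that rests on 1 array of pool 2 at 1.57, since the other 5 arrays were below 0. Complex I subunits of the respiratory chain had the lowest median of the lists, -0.096 over 32 genes, with 29 below 0 and 10 called lower with the block (31.2%). Ndufb2 (-0.17 ± 0.030) and Ndufa6 (-0.17 ± 0.020) were the lowest. The arrays of Ndufa6 ran from -0.45 to 0.069, and 3 of 6 were below 0. Ndufa10 (0.050 ± 0.014) and Ndufa9 (0.036 ± 0.13) were the highest. The detected complex I genes thus had a lower median than the detected ribosomal protein genes, -0.096 beside -0.066.

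Relatives that the rule left out had values in the same range. Rpl36al, a retrotransposed copy of Rpl36a, was at -0.15 ± 0.051, and the pseudogene probes Rpl30-ps1, Rpl30-ps5, Rpl32-ps and Rpl14-ps1 were at -0.19 ± 0.22, -0.15 ± 0.0032, -0.13 ± 0.097 and -0.056 ± 0.088. The pools of Rpl30-ps1 were at -0.0091, -0.43 and -0.12, so its mean rests largely on pool 2. The second probe of Fau was at -0.21 ± 0.055. Rps19bp1, which binds Rps19 but is no ribosomal protein, was at 0.014 ± 0.099.

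Medians were below 0 at every brightness, and the dimmest members had the fewest low ratios. With a mean log2 signal under 8 the median of 18 detected probes was -0.050, from 8 to 10 it was -0.093 (31 probes), from 10 to 12 it was -0.11 (40 probes), and from 12 up it was -0.061 (25 probes). The medians of other detected probes in these groups ran from 0.0022 to 0.0087. Ratios at -0.1 or lower were also more common among bright other probes, at 16.7% from 10 to 12 and 14.5% from 12 up, against 1.51% under 8. The share of ribosomal protein probes at or below -0.1 was 2 of 18 under 8, 14 of 31 from 8 to 10, 24 of 40 from 10 to 12 and 8 of 25 from 12 up.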

How the data were processed

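The authors' scanner tables give, per the file headers, each spot's mean intensity in both channels with the median and standard deviation of its background, on a linear scale. The authors also deposited log2 ratios, used as an alternative; set against the scanner values they read Lmx1a over control. Scanner software is not given in the sources used here. Background was corrected with normexp (offset 50), and ratios were normalized within arrays by loess (span 0.3) with 3223 control spots at weight 0, turned to Lmx1a over control and averaged per pool. Probes were tested with limma 3.58.1 in R 4.3.3 (lmFit, eBayes), with Benjamini-Hochberg adjustment over 31769 probes. Dye and pool fits ran likewise, and the procedure was tested on simulated data. The replicate number marks the RNA pool shared by 2 arrays, and the block fit had a consensus correlation of 0.068. The number of arrays limits the precision.

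Probe names came from the platform annotation, updated through RefSeq, which renamed 2 member genes (Rps3a1 and Rps4l). A gene's value is that of its brightest probe. Named are the 10 lowest and 6 highest detected genes, stalk proteins and Rpsa, paralogs with parents, genes with 3 or more probes, the 5 largest dye ratios called in each direction, the 5 smallest pool p-values and 2 genes at each end of a list. Others, such as the groups by site, were chosen after their values were seen. The members and lists were chosen with earlier results of these data known. Alternatives were other background corrections and normalizations, the authors' values, single orientations, leaving out pools or the dimmest array, and other variance models.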

Additional observations from a re-analysis of the deposited data

Results flagged for a closer look

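Of 137 probes, the 121 ribosomal protein probes and 16 of the comparison lists, 8 had 1 array that stood apart from the other 5 by Dixon's criterion, which chance meets in about 1 of 20 groups. Among the ribosomal protein probes were 1 probe of Rpl31, at 0.044 in pool 1 with Lmx1a in Cy3 and between -0.27 and -0.23 on the others, and the brightest probe of Rps14 on that same array, at 0.26 beside -0.30 to -0.10. The brightest probe of Rpl21 was at -0.33 in pool 2 with Lmx1a in Cy5, beside -0.13 to -0.029, and 1 probe of Rps10 at 0.24 on that array, beside -0.057 to 0.0031. The brightest probe of Rpl4 was at 0.12 in pool 3 with Lmx1a in Cy5, beside -0.11 to -0.033. In the lists, Mrps14 was at 0.24 in pool 2 with Lmx1a in Cy3, beside -0.037 to 0.066. Mrpl14 was at 1.57 and Vim at 0.26 on the other array of that pool, beside -0.18 to -0.0083 and 0.061 to 0.12.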

How the results depend on the processing

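The median ratio of the ribosomal protein probes was below 0 under every alternative run, moving most under median centring (-0.13), which also put the median of other bright probes at -0.052. Without 1 replicate it ran from -0.088 to -0.055, and without the dimmest array, a setting added after seeing the data, it was -0.085. Calls of ribosomal protein probes numbered 8 under median centring, 22 with a replicate block, 30 with only the arrays with Lmx1a in Cy5 and 10, of which 8 lower, with only the swapped ones. Over all probes these settings called 0.154%, 1.05%, 3.13% and 0.677%. The count was 0 otherwise, leave-one-out included; single orientations carry the dye. The large minus small difference was 0.022 with loess within print grids, 0.040 under median centring, 0.034 with the authors' values, 0.058 and 0.028 with these single orientations, and 0.0026 to 0.026 without 1 replicate. Dye calls numbered 0 with plain subtraction, 116 under median centring and 7 to 14 without 1 replicate. In the fits without 1 replicate 1.58% to 4.77% of all probes had a dye call. No probe differed between pools under any alternative run. Of the settings that can move a gene's ratio, the lowest 10 genes were below 0 in 110 of 110 values and the highest 6 above 0 in 53 of 66; the genes were picked as the ends of these same ratios. Aquantile scaling, the filter on detection, the replicate block and the variance trend leave a gene's ratio as it is by construction. Ratios by protein length were not run. The cause was not tested for any of these shifts. Differences of a few percent lie near the spread between pools, and dim probes sit close to background.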
